A study of Mus musculus with 2 samples.

Results

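Lyz2-positive monocytes and macrophages are the host phagocytes of the tumour. They were chosen here by their own transcripts, from subcutaneous tumours of A20, an established mouse line of B cell lymphoma with the Balb/c background. A barcode was a member if it held at least 200 genes, under 10% of its unique molecular identifiers (UMIs, each counted as 1 captured transcript) from mitochondrial genes, at least 5 UMIs of Lyz2, 0 of Cd3d, Cd3e and Cd3g together and under 5 of Cd79a, Jchain and Mzb1 together. Lyz2 encodes lysozyme, the Cd3 genes mark T cells, and the last 3 genes mark B-lineage cells such as A20 itself. There were 37 members with TAK-981 and 41 with vehicle, 78 of 4461 cells that passed the first 2 filters and of 4975 barcodes in all.

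Both libraries came from Balb/c mice that carried A20 tumours, started from 1000000 cells per mouse and treated at a volume near 300 mm3. The TAK-981 mice were given 7.5 mg/kg of TAK-981 (labelled TAK-981-001-J) into a vein, and the vehicle mice were given 20% HPbCD, a cyclodextrin solution. Tumours were taken after 8 h, passed through a 70 µm filter, cleared of dead cells and run on the 10x Genomics 5′ single-cell kit. Each arm is 1 library, and the number of mice behind it is not given in the labels used here. No replicate test between the arms was therefore possible: every interval below is a 95% interval that covers counting error only, and cells of 1 library are not replicates of a treatment.

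Monocytes leave the blood for inflamed tissue and tumours, where they can mature into macrophages or dendritic-like cells, gaining phagocytic receptors, complement proteins and MHC class II on the way. Both monocytes and macrophages sense nucleic acids and respond strongly to type I interferon, which signals through IFNAR1 and IFNAR2 to a complex of transcription factors that holds STAT2 and IRF9. That complex binds a short DNA element, the interferon-stimulated response element, in front of antiviral genes. TAK-981 inhibits the enzyme, a pair of the proteins SAE1 and UBA2, that activates SUMO, a small protein attached to many regulators of transcription, and loss of SUMO attachment is known to favour type I interferon production in myeloid cells.

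The members held 330563 UMIs in the TAK-981 library, with 5365, 8206 and 15400 in the lowest, the median and the highest cell. In the vehicle library they held 485721 UMIs, with 5980, 10453 and 35322 per cell, so the vehicle cells were the deeper ones. Their share of filtered cells was 1.84% (exact Clopper-Pearson interval 1.30 to 2.53%) with TAK-981 and 1.67% (1.20 to 2.26%) with vehicle, and these intervals overlap over most of their length. Mitochondrial transcripts passed 10% in 376 TAK-981 and 124 vehicle barcodes, which were left out. Of the 11 barcode sequences that both libraries held, 0 belonged to members.

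Lyz2 itself, which chose the cells, ran from 17 over a median of 269 to 653 UMIs per cell with TAK-981 and from 8 over 342 to 852 with vehicle. The 4 cells nearest the threshold held 17, 21, 98 and 118 UMIs with TAK-981 and 8, 11, 12 and 15 with vehicle. Outside it, the highest cell had 4 Lyz2 UMIs with TAK-981 and 2 with vehicle, so few barcodes lay near the threshold.

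Most of the other markers of monocytes and macrophages were found in most members of each library. Tyrobp and Fcer1g, adaptors of phagocyte receptors, were found in every member of both libraries. Cd14, a co-receptor for bacterial lipopolysaccharide, had UMIs in 34 of 37 and 39 of 41 cells, and Csf1r, the receptor of the macrophage growth factor, in 30 of 37 and 37 of 41. Ccr2, the chemokine receptor that brings monocytes out of the bone marrow, was in 30 and 34 cells. The macrophage antigen Adgre1 (F4/80) was in 10 TAK-981 and 23 vehicle cells. Over the 11 markers of monocytes and macrophages that the rule did not use (12 with Lyz2), the summed level was 13 to 326 UMIs per cell with TAK-981 and 26 to 247 with vehicle, and 0 of the 11 were at 0.

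Markers of other cells had few UMIs in sum, but some were spread over many members and differed between the libraries. At least 2 UMIs of the neutrophil list were in 20 of 37 TAK-981 and 6 of 41 vehicle cells. For conventional dendritic cells type 1 the numbers were 17 and 19, and for mature dendritic cells 8 and 22. Of the type 1 list's 59 and 93 UMIs, 31 and 61 were Naaa and 19 and 24 Batf3. Xcr1 and Itgae were at 0 in both libraries, and Clec9a and Cadm1 had at most 2 UMIs. The 12 neutrophil markers summed to 123 UMIs with TAK-981 (0 to 19 per cell, 7 markers at 0) and 33 with vehicle (0 to 7, 8 at 0). Mmp8, S100a8 and Csf3r held 57, 41 and 22 of them with TAK-981 and 4, 9 and 16 with vehicle. Ly6g, Cxcr2, Retnlg, Camp, Ngp and Ltf were at 0 in both. The 8 markers of conventional dendritic cells type 2 summed to 91 UMIs with TAK-981 (0 to 47 per cell, 0 at 0) and 200 with vehicle (0 to 71, 1 at 0). Of these markers, Cd209a had 16 and 14 UMIs in the TAK-981 and the vehicle cell with the fewest Lyz2 UMIs (17 and 8). Mgl2 reached 34 UMIs in a TAK-981 cell and 69 in a vehicle cell. Some members thus carried dendritic cell markers. The mature dendritic cell list held 34 and 279 UMIs, of which 13 and 218 were Cd63, a lysosomal membrane protein that macrophages make too. Of the T cell markers, the rule itself set the 3 Cd3 genes to 0, and the other 9 came to 3 UMIs with TAK-981 (6 at 0) and 25 with vehicle (7 at 0). The natural killer cell markers came to 53 UMIs with TAK-981 (0 to 24 per cell) and 15 with vehicle (0 to 3). Gzma had 19 and Prf1 4 UMIs with TAK-981, each in 1 cell. The 8 B cell or A20 markers that the rule did not use came to 28 UMIs with TAK-981 (0 to 15 per cell) and 26 with vehicle (0 to 12). In the TAK-981 library 1 cell stood apart, with 0.0111% mitochondrial UMIs, 21 UMIs of Lyz2 and 0 of Cd14.

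Across the 5968 genes whose UMIs in both libraries came to 10 or more, 720 (12.1%) were at least 2-fold higher in the TAK-981 members. At least 2-fold lower were 817 (13.7%). These shares are the background for all counts of list genes over all members below. Levels are the members' summed UMIs scaled to 1000000 per library (CPM), and the log2 ratio is TAK-981 over vehicle. The median log2 ratio over all these genes was -0.03, with quartiles of -0.61 and 0.46. The counting interval lay above 0 for 480 of the higher genes and below 0 for 379 of the lower genes, so many of the others rest on few UMIs. Among the 20 highest genes by the rule for naming, all but the neutrophil and monocyte collagenase Mmp8 are known for responding to interferon or for acting in antiviral defence. The 15 lowest held the 3 chains of complement C1q, the mannose receptor Mrc1, the neutrophil-attracting chemokine Cxcl1 and the hypoxia-responsive genes Hilpda and Ero1l.

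**Figure D1:**
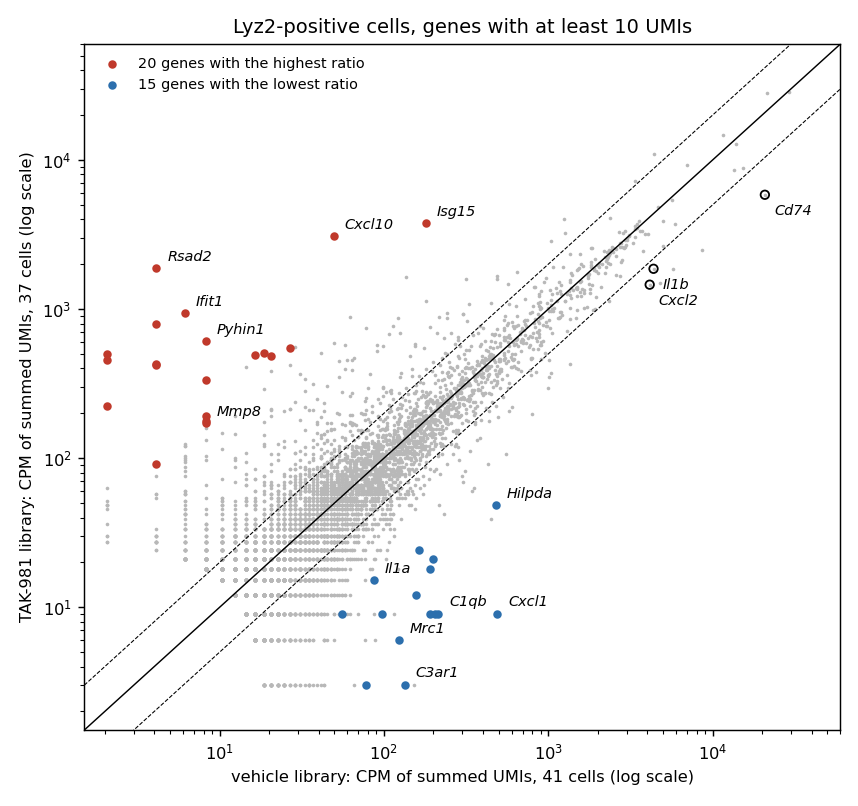
Level of each gene in the Lyz2-positive cells of the vehicle library (x axis, CPM, log scale) and of the TAK-981 library (y axis, CPM, log scale), 1 point per gene with at least 10 UMIs, with genes at 0 placed at the floor of 3 counts. Isg15 lies at 179.1 and 3763 CPM, far above the diagonal, and Hilpda at 479.7 and 48.4 CPM, far below it.

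Promoter windows of 5 of the 20 highest genes are shown, picked because they hold the letters that the interferon-activated complex is known to bind. Others of the 20, among them Cmpk2, Ifit2 and Slfn4, held no match. In the windows below, from RefSeq on build GRCm38.p6, capitals mark every match of GAAANNGAA on either strand (TTCNNTTTC when read on the gene's own strand), overlapping matches joined, within 250 bases before the gene's start. The mice were Balb/c, while the reference is another strain, so single bases may differ. Each window is written 5′ to 3′ on the gene's strand with 15 bases on each side of the outermost matches. Isg15 lies at chr4:156200861-156200911 (minus strand) and Ifit1 at chr19:34640765-34640828 (plus strand). Ifit3 lies at chr19:34583359-34583450 (plus strand), Rsad2 at chr12:26456548-26456586 (minus strand) and Cxcl10 at chr5:92349079-92349117 (minus strand).
Isg15: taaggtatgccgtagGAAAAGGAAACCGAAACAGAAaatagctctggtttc
Ifit1: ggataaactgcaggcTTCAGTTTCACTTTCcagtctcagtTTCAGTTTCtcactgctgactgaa
Ifit3: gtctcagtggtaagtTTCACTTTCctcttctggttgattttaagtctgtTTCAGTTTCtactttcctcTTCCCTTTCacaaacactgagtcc
Rsad2: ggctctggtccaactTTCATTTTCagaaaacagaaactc
Cxcl10: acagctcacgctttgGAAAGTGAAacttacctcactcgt

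Isg15, Ifit1 and Ifit3 each held 3 matches, and Rsad2 and Cxcl10 held 1 each. Of the 20 highest genes, 17 had a promoter in the table and 7 of these (41.2%) held the motif, against 1 of 11 (9.09%) of the 15 lowest. Of all genes at least 2-fold higher, 101 of 560 (18.0%) held it, against 51 of 631 (8.08%) of those at least 2-fold lower and 246 of 3446 (7.14%) of those in between. Of the antiviral effectors described next 21 of 44 (47.7%) held it, and of the tissue macrophage genes, most of which were lower with TAK-981, 6 of 22 (27.3%). Over all 27025 genes of the table the share was 8.18%. The second motif searched, the gamma-activated sequence TTCNNNGAA, was in 53 of the 560 higher genes (9.46%) and in 8.13% of all genes. A match describes letters and is not a measured binding site.

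Antiviral effectors made up the longest of the interferon lists. Of 56 listed genes, 50 were measured, and 45 of them were at least 2-fold higher with TAK-981 and 1 at least 2-fold lower, with a median log2 ratio of 3.04 against -0.03 over all genes. Of the 50, 4 had 0 UMIs in a library and entered at the bound that the floor of 3 counts gives. The summed level of the list was 34130 CPM with TAK-981 and 10609 CPM with vehicle.

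Rsad2 (viperin), an enzyme that makes a chain-terminating nucleotide against viral polymerases, had 625 UMIs (1891 CPM) with TAK-981 and 2 (4.12 CPM) with vehicle. Its log2 ratio was 8.84 (6.98 to 11.89). UMIs were seen in 27 of 37 and 2 of 41 cells. No vehicle cell held more than 1 UMI, while the highest TAK-981 cell held 149. Its neighbour Cmpk2, a mitochondrial kinase that supplies the same pathway with nucleotides, had 165 UMIs with TAK-981 and 1 with vehicle, a log2 ratio of 7.92 (5.42 to 13.23).

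The IFIT proteins, which bind viral RNA that lacks the host's cap marks, were nearly silent with vehicle. Ifit1 had 309 UMIs in 30 cells with TAK-981 and 0 with vehicle, which makes it at least 151-fold higher. Ifit2 had 264 UMIs with TAK-981 and 2 with vehicle, a log2 ratio of 7.60 (5.73 to 10.65). Ifit3 had 150 and 1, a log2 ratio of 7.78 (5.28 to 13.10), although its near-identical copy Ifit3b could share its reads. The dynamin-like GTPase Mx1 had 140 UMIs with TAK-981 and 2 with vehicle, a log2 ratio of 6.68 (4.80 to 9.74).

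Phf11d, Phf11b, Oasl1, Ifi44, Isg20 and Trim30d, all interferon-responsive and among the 20 highest, had log2 ratios between 4.35 and 5.35. Isg20, a nuclease of viral RNA, had 161 UMIs with TAK-981 and 10 with vehicle. Oasl1, a relative of the enzymes that activate RNase L, had 163 and 8.

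Not every antiviral gene differed as much. Ifitm3, which blocks entry of enveloped viruses, was already abundant with vehicle (3387 CPM, in 40 of 41 cells) and stood at 7230 CPM with TAK-981, a log2 ratio of 1.09 (1.00 to 1.19). Ifitm2, its relative, was at 2447 CPM with TAK-981 and 2328 CPM with vehicle, a log2 ratio of 0.07 (-0.06 to 0.20). The 1 lower member was Ifi27, with 13 UMIs with TAK-981 and 42 with vehicle, a log2 ratio of -1.14 (-2.16 to -0.21).

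All 5 measured genes of the ISG15 system, which attaches the ubiquitin-like protein ISG15 to other proteins, were at least 2-fold higher. Isg15 itself had 1244 UMIs (3763 CPM) with TAK-981 and 87 (179.1 CPM) with vehicle, a log2 ratio of 4.39 (4.08 to 4.72). Per cell it ran from 0 over a median of 33 to 125 UMIs with TAK-981 and from 0 over 0 to 18 with vehicle, so most TAK-981 cells lay above the highest vehicle cell. Usp18, which removes ISG15 and damps the interferon receptor, had 142 UMIs with TAK-981 and 2 with vehicle, a log2 ratio of 6.70 (4.83 to 9.76). The ligase Herc6 had 63 and 4, a log2 ratio of 4.53 (3.11 to 6.45).

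Of 22 measured sensors of RNA and DNA and their adaptors, 16 were at least 2-fold higher and 0 at least 2-fold lower (median log2 ratio 2.85). Many sensors are themselves known to be induced by interferon. Pyhin1, of the family of DNA-binding PYHIN proteins, had 201 UMIs with TAK-981 and 4 with vehicle, a log2 ratio of 6.21 (4.83 to 8.10). Its relative Pydc3 had 15 and 1, a log2 ratio of 4.46 (1.76 to 9.86). Ddx58 (RIG-I), a sensor of uncapped viral RNA, had 59 and 4, a log2 ratio of 4.44 (3.01 to 6.36). Ifih1 (MDA5), which senses long double-stranded RNA, had 96 and 9, a log2 ratio of 3.97 (2.99 to 5.14). By contrast Tmem173 (STING), the adaptor of cytosolic DNA sensing, had 41 UMIs with TAK-981 and 36 with vehicle, a log2 ratio of 0.74 (0.06 to 1.43).

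The large GTPases that attack vacuoles of intracellular pathogens were higher as a group, with 13 of 14 measured members at least 2-fold higher, 0 at least 2-fold lower and a median log2 ratio of 2.98. Gbp5, which also promotes inflammasome assembly, had 34 UMIs with TAK-981 and 3 with vehicle, a log2 ratio of 4.06 (2.39 to 6.41). Ifi47 had 294 UMIs with TAK-981 and 30 with vehicle, a log2 ratio of 3.85 (3.30 to 4.44), and was seen in 35 of 37 and 7 of 41 cells. Tgtp2, which shares reads with its copy Tgtp1, had 49 and 5. Gbp2 stood at 744.2 CPM with TAK-981 and 78.2 CPM with vehicle.

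Of the Schlafen and PARP families, which restrict translation and modify proteins with ADP-ribose, 10 of 11 measured members were at least 2-fold higher and 0 at least 2-fold lower (median log2 ratio 3.24). Slfn4, a Schlafen gene of myeloid cells, had 74 UMIs with TAK-981 and 1 with vehicle, a log2 ratio of 6.76 (4.24 to 12.09). Slfn5 had 196 and 24, a log2 ratio of 3.58 (2.97 to 4.26). Dtx3l, a ligase that works with a PARP protein, had 29 and 3, a log2 ratio of 3.83 (2.14 to 6.19).

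The signalling chain itself differed less than its targets. Of 21 measured receptors, STAT and IRF factors and regulators, 8 were at least 2-fold higher and 0 at least 2-fold lower. All genes had shares of 12.1% and 13.7%, and the median log2 ratio of the list was 0.88. Irf7, the factor that amplifies type I interferon production, had 543 UMIs in 34 cells with TAK-981 and 66 in 17 cells with vehicle, a log2 ratio of 3.60 (3.22 to 3.99). Stat2 had 47 and 9, a log2 ratio of 2.94 (1.89 to 4.15). Batf2, an AP-1 relative induced by interferon, had 16 and 1, a log2 ratio of 4.56 (1.87 to 9.95).

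The receptor chain Ifnar1 had 17 UMIs with TAK-981 and 37 with vehicle, a log2 ratio of -0.57 (-1.49 to 0.30). Ifnar2 had 64 and 87, a log2 ratio of 0.11 (-0.38 to 0.59), so the counts did not set either receptor chain apart between the libraries. All 19 interferon ligand genes in the files had 0 UMIs in the members of both libraries. At 37 and 41 cells, and with 3 cells taken as the limit that a count of 0 allows, up to 8.11% and 7.32% of cells could hold a UMI of any 1 of them.

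The interferon difference was spread over most cells. UMIs from the antiviral, ISG15 and GTPase lists were summed per cell after each cell was thinned to 4000 UMIs. They ran from 5 over a median of 156 to 471 with TAK-981 and from 8 over 43 to 140 with vehicle. Of the 37 TAK-981 cells, 33 lay above the vehicle median and 23 above the highest vehicle cell, and 0 vehicle cells lay above the TAK-981 median. Without thinning, the medians were 394 and 109.8 per 10000 UMIs of the cell. The lowest TAK-981 cell, at 5, was the one that stood apart by its mitochondrial share.

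**Figure D2:**
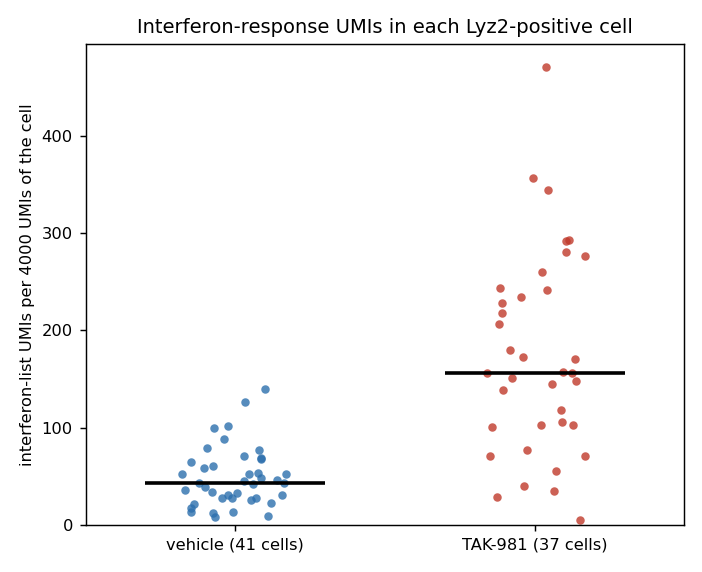
UMIs of the antiviral, ISG15 and GTPase lists in each Lyz2-positive cell after thinning to 4000 UMIs, 1 point per cell, by library, with a bar at the median. The TAK-981 cells range from 5 to 471 and the vehicle cells from 8 to 140, and the medians are 156 and 43.

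The share of cells with a UMI showed the same direction for single genes. Isg15 was found in 94.6% of the TAK-981 cells and 43.9% of the vehicle cells, and in 94.6% and 26.8% after thinning. In CD3-positive cells of the same tumours (median depth 6623 and 8148 UMIs) the share was 76.9% with TAK-981 and 19.1% with vehicle, and in B-lineage and A20 cells (15910 and 21885 UMIs) 19.2% and 8.06%. Rsad2 was found in 73.0% and 4.88% of members (62.2% and 2.44% after thinning), against 28.2% and 0% of CD3-positive cells and 0.166% and 0% of B-lineage and A20 cells. How far free RNA could add to these shares was not tested.

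Other cells of the tumours place these values. The antiviral list had a median log2 ratio of 2.45 in the 39 and 47 CD3-positive cells and 1.18 in the 1812 and 2257 B-lineage and A20 cells, beside 3.04 in the members. The GTPase list had medians of 2.02 and 1.29, beside 2.98. Cxcl10 had 369 UMIs with TAK-981 and 173 with vehicle in B-lineage and A20 cells, a log2 ratio of 1.79 (1.52 to 2.06). These 3 kinds of cells come from the same 2 libraries, and the difference between their ratios was not tested.

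Chemokines went in both directions. Of 18 measured ligands, 5 were at least 2-fold higher and 9 at least 2-fold lower, beside 12.1% and 13.7% of all genes. The median log2 ratio was -0.98. The higher ligands draw T cells, natural killer cells and monocytes. The lower ones were Cxcl1, Ccl8, Pf4, Ccl7, Ccl17, Cxcl16, Cxcl3, Cxcl2 and Ccl12, and several of these rest on 1 vehicle cell.

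Cxcl10, a ligand of CXCR3 on T and natural killer cells, had 1021 UMIs (3089 CPM) with TAK-981 and 24 (49.4 CPM) with vehicle, a log2 ratio of 5.97 (5.38 to 6.62). Per cell it ran from 0 over a median of 5 to 148 UMIs with TAK-981, and from 0 over 0 to 10 with vehicle. Some was seen in 26 of 37 and 5 of 41 cells, so 11 TAK-981 cells had none. Cxcl9, another CXCR3 ligand, had 130 UMIs with TAK-981 and 31 with vehicle, a log2 ratio of 2.62 (2.05 to 3.24), in 8 and 5 cells. In the 22 and 9 members with no UMI of 11 macrophage and dendritic cell genes (C1qa, C1qb, C1qc, Mrc1, Trem2, Ms4a7, Arg1, Pf4, Mgl2, Cd209a and Clec10a) the Cxcl9 ratio was -0.11. Ccl2, the ligand of CCR2, had 313 and 117, a log2 ratio of 1.97 (1.66 to 2.29), in 21 and 22 cells. Its median was 1 UMI per cell in both libraries. The 2 highest cells held 75 and 58 of the 313 with TAK-981, and 27 and 19 of the 117 with vehicle. The T cell-attracting Ccl5 had 135 UMIs with TAK-981 and 7 with vehicle, but 83 and 48 of the 135 were in 2 cells. Ccl5 had 4 and 6 UMIs, a log2 ratio of -0.40, in a subset of only 14 and 13 members. These held under 5 UMIs of S100a8 and S100a9 together and under 2 of dendritic cell markers.

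Cxcl1, a ligand of the neutrophil receptor CXCR2, had 0 UMIs with TAK-981 and 238 in 15 of 41 cells with vehicle. By the floor of 3 counts Cxcl1 was at least 54.0-fold lower, with an interval from 43.6-fold up. It was found in 0% of the CD3-positive and of the B-lineage and A20 cells of both libraries. Cxcl2, which acts on the same receptor, had 482 UMIs (1458 CPM) with TAK-981 and 2012 (4142 CPM) with vehicle, a log2 ratio of -1.51 (-1.65 to -1.36). Its per-cell ranges overlapped, with 0, 2 and 148 UMIs in the lowest, median and highest TAK-981 cell and 0, 23 and 250 with vehicle. Cxcl16, a membrane-bound ligand, had 25 and 146, a log2 ratio of -1.99 (-2.67 to -1.37). Ccl8 and Ccl17 had 0 UMIs with TAK-981 and 56 and 26 with vehicle, each in 1 cell. Pf4, which macrophages as well as platelets make, had 0 and 34, with 30 of the 34 in 1 cell. Ccl12 had 21 and 62, with 34 of the 62 in 1 cell, and a log2 ratio of 0.03 without it. Ccl7 had 3 and 26, and Cxcl3, another CXCR2 ligand, 5 and 28.

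Among 14 measured cytokines, 5 were at least 2-fold higher and 3 at least 2-fold lower, beside 12.1% and 13.7% of all genes. The median log2 ratio was 0.10. Il15, which sustains natural killer and memory T cells, had 40 UMIs in 18 cells with TAK-981 and 3 in 2 cells with vehicle, a log2 ratio of 4.29 (2.64 to 6.63). Its presenting receptor Il15ra had 19 and 2, a log2 ratio of 3.80 (1.75 to 6.95). Tnfsf10 (TRAIL), a ligand of death receptors, had 15 UMIs with TAK-981 and 0 with vehicle, at least 7.35-fold higher by the floor of 3 counts.

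The inflammatory cytokine Il1b had 616 UMIs (1863 CPM) with TAK-981 and 2123 (4371 CPM) with vehicle, a log2 ratio of -1.23 (-1.36 to -1.10). With the Lyz2 minimum at 3 UMIs, which adds 2 TAK-981 cells, it had 816 and 2123 UMIs and a log2 ratio of -0.91. The cells overlapped, with 0, 5 and 63 UMIs in the lowest, median and highest TAK-981 cell and 0, 46 and 175 with vehicle. Il1a, its membrane-associated relative, had 5 and 42 UMIs, a log2 ratio of -2.52 (-4.21 to -1.18). Tnf stood at 145.2 CPM with TAK-981 and 150.3 CPM with vehicle, a log2 ratio of -0.05 (-0.61 to 0.50).

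NF-kB subunits and the inhibitors that NF-kB itself induces had a median log2 ratio of -0.58. Of 19, 0 were at least 2-fold higher and 2 at least 2-fold lower, beside 12.1% and 13.7% of all genes. The lower ones were Ptgs2 (cyclooxygenase-2), with 20 UMIs with TAK-981 and 167 with vehicle and a log2 ratio of -2.51 (-3.25 to -1.83), and the inhibitor Tnip3, with 30 and 117. Bcl3, a nuclear partner of NF-kB, had 103 UMIs with TAK-981 and 76 with vehicle, a log2 ratio of 0.99 (0.55 to 1.44). The inhibitor Nfkbia stood at 1691 CPM with TAK-981 and 2590 CPM with vehicle, a log2 ratio of -0.62 (-0.76 to -0.47). Of 23 immediate early genes, 2 were at least 2-fold higher and 4 at least 2-fold lower (median log2 ratio -0.01), close to the 12.1% and 13.7% of all genes. Fos was at 1128 and 1124 CPM, and Jun at 831.9 CPM with TAK-981 and 319.1 CPM with vehicle, a log2 ratio of 1.38 (1.09 to 1.68). Nr4a3, Egr1 and Maff, all early response genes, had the lowest ratios of the list, at -1.93, -1.67 and -1.52, of which Egr1 had only 6 and 28 UMIs.

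**Figure D3:**
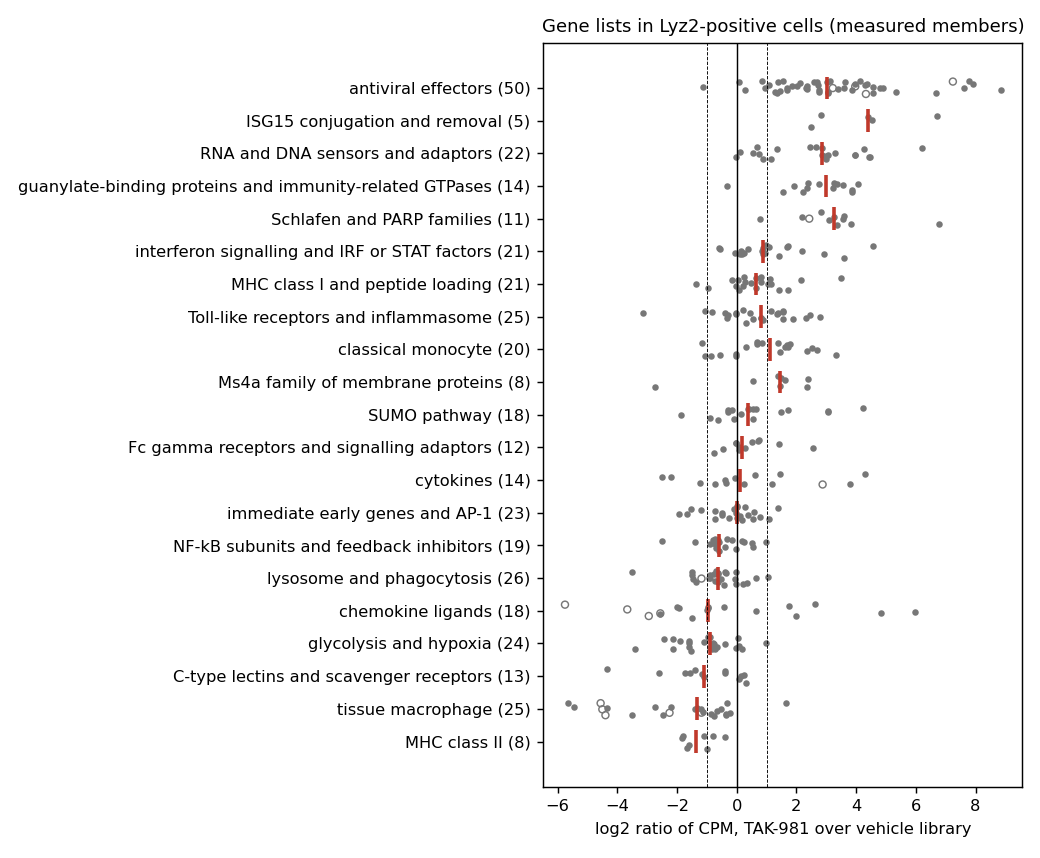
Log2 ratio (TAK-981 over vehicle) of every measured gene of each list in the Lyz2-positive cells, 1 circle per gene, with a red bar at the list's median and dashed lines at 2-fold. Open circles are bounds for genes at 0 UMIs in a library. The antiviral list lies to the right with a median of 3.04, and the tissue macrophage and MHC class II lists lie to the left with medians of -1.32 and -1.36.

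The 2 antigen-presenting pathways had medians of opposite sign over all members. For MHC class I and peptide loading, which display cytosolic peptides, 21 genes were measured (median log2 ratio 0.64). Of these, 7 were at least 2-fold higher and 1 at least 2-fold lower, beside 12.1% and 13.7% of all genes. The classical heavy chain H2-K1 was at 1981 CPM with TAK-981 and 1993 CPM with vehicle, a log2 ratio of -0.01 (-0.15 to 0.14). The peptide transporter Tap1 had 90 UMIs with TAK-981 and 60 with vehicle, a log2 ratio of 1.14 (0.65 to 1.64). The non-classical H2-T24 had 38 and 5 and H2-T22 had 58 and 19, and reads of these similar genes could be split between copies. Nlrc5, the activator of class I genes, had only 9 and 4, a log2 ratio of 1.73 (-0.12 to 3.88), and the 1 lower gene was H2-M3, with 9 and 34.

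For MHC class II, which displays peptides from engulfed material, 8 genes were measured, with 0 at least 2-fold higher, 5 at least 2-fold lower and a median log2 ratio of -1.36. The alpha chain H2-Aa had 825 UMIs (2496 CPM) with TAK-981 and 4198 (8643 CPM) with vehicle, a log2 ratio of -1.79 (-1.90 to -1.68). The invariant chain Cd74 stood at 5845 CPM with TAK-981 and 20806 CPM with vehicle, a log2 ratio of -1.83 (-1.90 to -1.76). H2-Eb1, a beta chain, had 493 and 2319 UMIs, a log2 ratio of -1.68 (-1.82 to -1.54).

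The class II difference lay in how many cells held it. H2-Aa was found in 32.4% of the TAK-981 cells and 82.9% of the vehicle cells (32.4% and 80.5% after thinning). In CD3-positive cells, which should lack it in tumours full of H2-Aa-rich A20 cells, the share was 20.5% and 12.8%. Counting cells with at least 20 H2-Aa UMIs, a limit chosen after the values were seen, gave 7 of 37 TAK-981 cells (18.9%, 7.96 to 35.2%) and 31 of 41 vehicle cells (75.6%, 59.7 to 87.6%). The 7 TAK-981 cells held 56 to 204 UMIs and the other 30 held 0 to 3, with none between.

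The 7 TAK-981 cells with class II had a median of 71 interferon-list UMIs of 4000 (29 to 206), and the other 30 had 172 (5 to 471). In the vehicle library the 31 cells with class II had a median of 45 (9 to 126) and the other 10 had 38.5 (8 to 140). Of the 7 cells, 2 held at least 2 UMIs of the monocyte gene Ly6c2, against 27 of the other 30. With TAK-981, low class II, high Ly6c2 and high interferon counts thus fell largely in the same cells. Interferon counts were higher in the cells with at least 2 Ly6c2 UMIs in both libraries. Their medians were 171 with TAK-981 and 66.5 with vehicle, against 70.5 and 28 in the other cells. The libraries held 29 and 18 such cells, and the part of this mix in the interferon difference was not tested. At least 20 H2-Aa UMIs were seen in 2 of the 29 TAK-981 cells with at least 2 Ly6c2 UMIs and in 11 of 18 such vehicle cells.

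The genes of monocyte and macrophage identity differed as well. Of 20 measured classical monocyte genes, 10 were at least 2-fold higher with TAK-981 and 2 at least 2-fold lower (median log2 ratio 1.11). Without the members that the interferon lists also hold, 8 of 18 were higher and 2 lower, with a median of 0.77. Of 25 measured tissue macrophage genes, 1 was at least 2-fold higher and 16 at least 2-fold lower, with a median of -1.32, and 5 of the 25 entered at a bound.

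Ly6c2, the antigen of classical monocytes, had 554 UMIs with TAK-981 and 238 with vehicle, a log2 ratio of 1.77 (1.55 to 2.00), although Ly6c1 could share its reads. Plac8, a gene of young monocytes that interferon can raise, ran from 0 over a median of 34 to 104 UMIs per cell with TAK-981 and from 0 over 6 to 72 with vehicle. Chil3, a chitinase-like protein of monocytes, had 188 and 48, a log2 ratio of 2.52 (2.06 to 3.01). The detoxifying enzyme Mgst1 had 191 and 44, a log2 ratio of 2.67 (2.19 to 3.18). Ccr2 stood at 405.4 CPM with TAK-981 and 323.2 CPM with vehicle, a log2 ratio of 0.33 (-0.02 to 0.67).

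The complement genes C1qa, C1qb and C1qc, made mainly by tissue macrophages, had 0 UMIs in all 37 TAK-981 cells. With vehicle they had 100, 104 and 93 UMIs, each in 7 of 41 cells, which makes them at least 22.7-fold, 23.6-fold and 21.1-fold lower with TAK-981. Of the vehicle cells, 6 (14.6%, 5.57 to 29.2%) held at least 5 C1q UMIs. The planned comparison within such cells had no TAK-981 cell to use.

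Mrc1, the mannose receptor, had 2 UMIs in 1 cell with TAK-981 and 60 in 16 cells with vehicle, a log2 ratio of -4.35 (-7.43 to -2.44). The complement receptor C3ar1 had 1 and 65, a log2 ratio of -5.47 (-10.79 to -2.94), in 1 and 17 cells. Trem2, a lipid receptor of macrophages, had 6 and 41, a log2 ratio of -2.22 (-3.74 to -0.97). Arg1, an arginine-degrading enzyme of tumour macrophages, had 1 UMI with TAK-981 and 74 with vehicle, all in 2 cells. Csf1r differed little, at 251.1 CPM with TAK-981 and 294.4 CPM with vehicle, a log2 ratio of -0.23 (-0.64 to 0.17). The remaining genes of the 15 lowest were the lysosomal phosphatase Acp2 (1 and 38 UMIs), the matrix protein gene Ecm1 (4 and 76) and Gm15056 (0 and 47). Rgs1, a brake on G protein signalling, had 7 and 96, and the lysosomal Pld3 had 8 and 79. The macrophage gene that was higher was the transcription factor Maf, with 17 and 8 UMIs. Maf had 4 and 5 once cells with S100a8, S100a9 or dendritic cell markers were left out, which kept only 14 and 13 cells.

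Fewer macrophage-type cells among the members and less of these transcripts per cell cannot be told apart for the summed UMIs. The marker lists of type 2 and mature dendritic cells were also higher with vehicle, and their part in these differences was not tested. The comparison was also made in the cells with at least 2 UMIs of Ly6c2, 29 with TAK-981 and 18 with vehicle, a limit chosen after the data were seen. Ly6c2 itself differed between the libraries (554 and 238 UMIs), and 2 of the 29 and 11 of the 18 cells held at least 20 H2-Aa UMIs. The cells compared are thus unlike in other ways, and fewer macrophage-type cells and less per cell cannot be told apart here either. In the Ly6c2-positive cells 10 of 19 measured tissue macrophage genes were at least 2-fold lower and 1 at least 2-fold higher. The median log2 ratio was -1.37, with 4 of the 19 at a bound, beside -1.32 over the 25 measured in all members. Over all 4246 genes measured in those cells, 588 were at least 2-fold higher and 468 at least 2-fold lower. In the members with 0 C1q UMIs the median was -0.70 (8 of 19 at least 2-fold lower). It was -0.54 (4 of 12) in the 22 and 9 with no UMI of the 11 macrophage and dendritic cell genes. Over all genes measured in these subsets, 693 of 5595 and 345 of 3193 were at least 2-fold lower.

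The antiviral list had a median log2 ratio of 2.21 in the Ly6c2-positive cells, smaller than the 3.04 of all members, with 36 of 47 genes at least 2-fold higher. The GTPase list had one of 2.85. Rsad2 had 582 UMIs with TAK-981 and 1 with vehicle, and Cxcl10 had 856 and 9, a log2 ratio of 6.01 (5.08 to 7.14). Isg15 had 1017 and 70, a log2 ratio of 3.30 (2.95 to 3.67). The median interferon-list count per cell was 171 with TAK-981 and 66.5 with vehicle.

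The monocyte difference was smaller there and the class II difference larger. The classical monocyte list had a median log2 ratio of 0.68 (1.11 in all members), with 6 of 19 genes at least 2-fold higher and 0 at least 2-fold lower. Ly6c2, which chose these cells, and Plac8 were under 2-fold, with log2 ratios of 0.67 and 0.68. The class I list had a median of 0.20, with 3 of 20 genes at least 2-fold higher and 2 at least 2-fold lower. Those counts were near the shares over all genes of these cells, 588 higher and 468 lower of 4246. H2-Aa had 155 and 1124, a log2 ratio of -3.42 (-3.67 to -3.18), and 7 of the 8 class II genes were at least 2-fold lower. Cxcl1 had 0 and 35 UMIs, in 4 vehicle cells.

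The lower medians of the chemokine and NF-kB lists were not seen in the Ly6c2-positive cells. The chemokine list had a median of 0.52 there and -0.98 in all members, and the NF-kB list 0.02 there and -0.58 in all. Cxcl2 had 425 UMIs with TAK-981 and 504 with vehicle, a log2 ratio of -0.81 with an upper interval end of -0.62. Il1a, at -2.52 in all members, had 5 and 3 UMIs, a log2 ratio of 0.17. Il1b had a log2 ratio of -1.07 (-1.24 to -0.91) there. The other subsets differed from this one. In the members with 0 C1q UMIs the chemokine median was -0.69 and the NF-kB median -0.61. Members with no UMI of the 11 macrophage and dendritic cell genes had medians of 0.54 and -0.39.

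**Figure D4:**
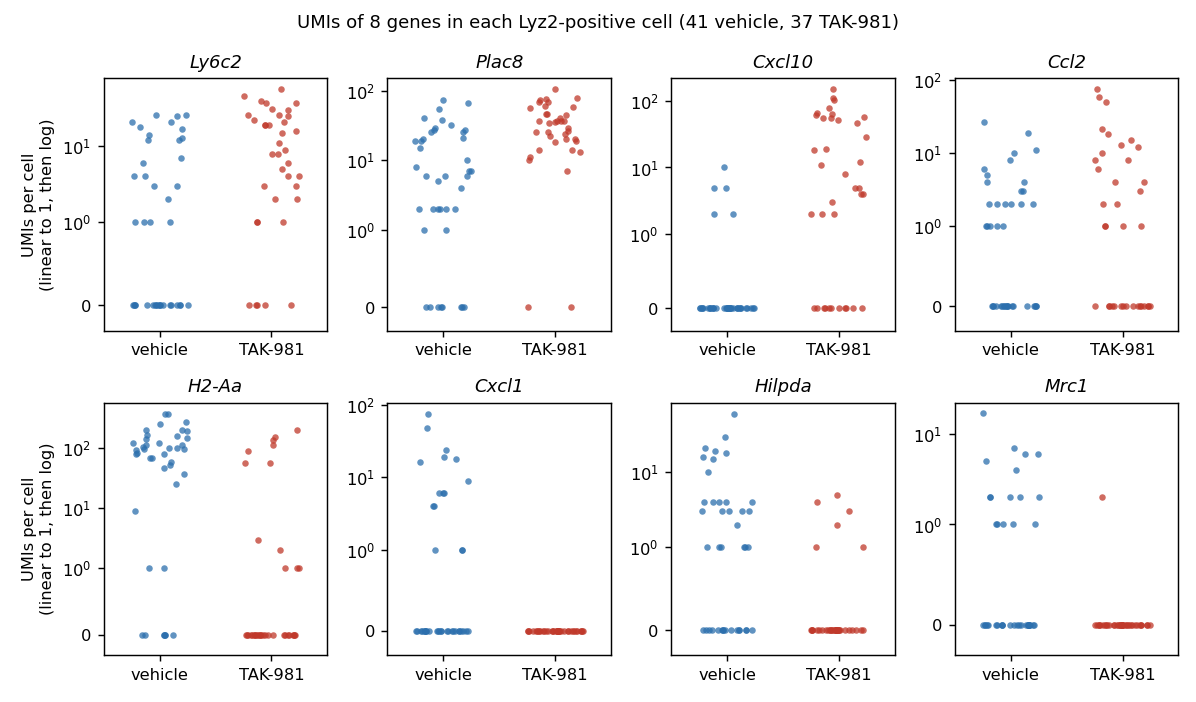
UMIs per Lyz2-positive cell for 8 genes, 1 point per cell, by library (y axis on a scale that is linear near 0 and logarithmic above). Cxcl10 reaches 148 UMIs with TAK-981 and 10 with vehicle, Cxcl1 is at 0 in all 37 TAK-981 cells, and H2-Aa is at or near 0 in 30 of 37 TAK-981 cells.

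Receptors that detect and engulf targets were mixed. Of 12 Fc gamma receptors and their adaptors, 2 were at least 2-fold higher and 0 at least 2-fold lower (median log2 ratio 0.18). Over all genes the shares were 12.1% and 13.7%. Fcgr1, the high-affinity receptor for antibody, had 174 UMIs with TAK-981 and 44 with vehicle, a log2 ratio of 2.54 (2.05 to 3.05). Trem3, an activating receptor of myeloid cells, had 20 and 11. Without cells that held S100a8, S100a9 or dendritic cell markers, which kept only 14 and 13 cells, Trem3 had 4 and 7. The inhibitory receptor Fcgr2b had 154 and 381, a log2 ratio of -0.75 (-1.03 to -0.48). Of 13 C-type lectins and scavenger receptors, 0 were at least 2-fold higher and 7 at least 2-fold lower (median -1.10). Clec4n (dectin-2), which binds fungal mannans, had 98 UMIs with TAK-981 and 481 with vehicle, a log2 ratio of -1.74 (-2.07 to -1.42). Clec10a, a lectin of dendritic cells and macrophages, had 3 and 27.

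Of 25 genes of Toll-like receptor signalling and inflammasomes, 10 were at least 2-fold higher and 2 at least 2-fold lower (median log2 ratio 0.81). The adaptor Myd88 had 123 UMIs with TAK-981 and 62 with vehicle, a log2 ratio of 1.54 (1.09 to 2.01). Casp4, which senses cytosolic lipopolysaccharide, had 78 and 21, a log2 ratio of 2.45 (1.74 to 3.22), and Casp1, which cuts pro-interleukin-1 beta, had 65 and 26. Mlkl, which carries out necroptosis, had 14 and 3, a log2 ratio of 2.78 (0.94 to 5.22), and the kinase Irak1 had 1 and 13. The sensor Nlrp3 had 34 and 104, a log2 ratio of -1.06 (-1.66 to -0.49). These caspases were thus higher while the sensor and the caspase substrate Il1b were lower.

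Of 8 genes of the Ms4a family of membrane proteins, 6 were at least 2-fold higher and 1 at least 2-fold lower (median log2 ratio 1.46). Ms4a4c, of monocytes, had 530 UMIs with TAK-981 and 154 with vehicle, a log2 ratio of 2.34 (2.08 to 2.61). Ms4a4b had 18 and 5, a log2 ratio of 2.40 (0.92 to 4.19). Ms4a7, a macrophage member, had 6 and 59, a log2 ratio of -2.74 (-4.25 to -1.54). That difference came from 1 vehicle cell, without which Ms4a7 had 6 and 6 UMIs and a log2 ratio of 0.45.

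Genes of glycolysis and the response to low oxygen were lower with TAK-981. Of 24 measured, 0 were at least 2-fold higher and 10 at least 2-fold lower, with a median log2 ratio of -0.91. The same list had medians of -0.08 in the CD3-positive cells and -0.00 in the B-lineage and A20 cells, and -0.60 in the Ly6c2-positive members. The unthinned sums per cell had medians of 47 UMIs with TAK-981 and 85 with the deeper vehicle cells. Their ranges (13 to 299 and 22 to 656) overlapped. The 299 was the TAK-981 cell that stood apart by its mitochondrial share, and the next highest TAK-981 cell held 154. Hexokinase Hk2 had 3 and 24 UMIs and the oxygen sensor Egln3 had 2 and 13, log2 ratios of -2.44 (-4.82 to -0.73) and -2.15 (-5.34 to -0.00).

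Hilpda, which keeps lipid droplets from being broken down in hypoxia and is not on that list, had 16 UMIs in 6 cells with TAK-981 and 233 in 25 cells with vehicle. Its log2 ratio was -3.31 (-4.14 to -2.58). In B-lineage and A20 cells Hilpda had a log2 ratio of 0.32 (0.17 to 0.47). Ero1l, an oxidase of the endoplasmic reticulum induced by hypoxia, had 6 and 93 UMIs in the members, a log2 ratio of -3.40 (-4.88 to -2.22). The lactate-forming Ldha was at 874.3 CPM with TAK-981 and 1480 CPM with vehicle, a log2 ratio of -0.76 (-0.96 to -0.56). The regulator Hif1a itself had 52 and 68 UMIs, a log2 ratio of 0.17 (-0.38 to 0.71).

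Genes of the lysosome had a median log2 ratio of -0.62. Of 26, 1 (Lamp2, 155 and 110 UMIs) was at least 2-fold higher and 6 at least 2-fold lower. Over all genes the shares were 12.1% and 13.7%. The proteases Ctsd and Ctsl had 123 and 68 UMIs with TAK-981 and 507 and 282 with vehicle, log2 ratios of -1.49 (-1.78 to -1.20) and -1.50 (-1.90 to -1.11). Ctsd stood at a log2 ratio of 0.00 (64 and 26 UMIs) in the 22 and 9 members with no UMI of 11 macrophage and dendritic cell genes. Cd63 had 13 and 218, with 112 of the 218 in 1 cell.

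The SUMO pathway, which TAK-981 targets at the protein level, differed in a few members. Of 18 measured, 5 were at least 2-fold higher and 1 at least 2-fold lower, beside 12.1% and 13.7% of all genes. The median log2 ratio was 0.39. The target's subunits Sae1 and Uba2 had 11 and 16 UMIs with TAK-981 and 20 and 29 with vehicle, log2 ratios of -0.31 (-1.52 to 0.82) and -0.30 (-1.28 to 0.63). At this depth, differences within these intervals were not detectable. The 1 lower member was the SUMO protease Senp3, with 3 and 16.

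The 5 higher members were Daxx, Sp100, Pml, Ranbp2 and Sumo3. The first 3 encode proteins known from PML bodies, nuclear structures built from SUMO-modified proteins. Daxx, a chaperone of histones that binds SUMO, had 127 UMIs in 32 of 37 cells with TAK-981 and 10 in 8 of 41 cells with vehicle, a log2 ratio of 4.22 (3.30 to 5.32). Sp100 had 148 and 26, a log2 ratio of 3.06 (2.46 to 3.73), and Pml had 17 and 3, a log2 ratio of 3.06 (1.27 to 5.47). These 3 are also known as interferon-responsive genes. Ranbp2, a SUMO ligase of the nuclear pore, had 45 and 20 UMIs, a log2 ratio of 1.73 (0.94 to 2.56), and Sumo3, a SUMO protein itself, had 38 and 20, a log2 ratio of 1.48 (0.66 to 2.34). In B-lineage and A20 cells Daxx had a log2 ratio of 0.52 (0.43 to 0.62) and in CD3-positive cells 3.67 (2.60 to 4.94).

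**Figure D5:**
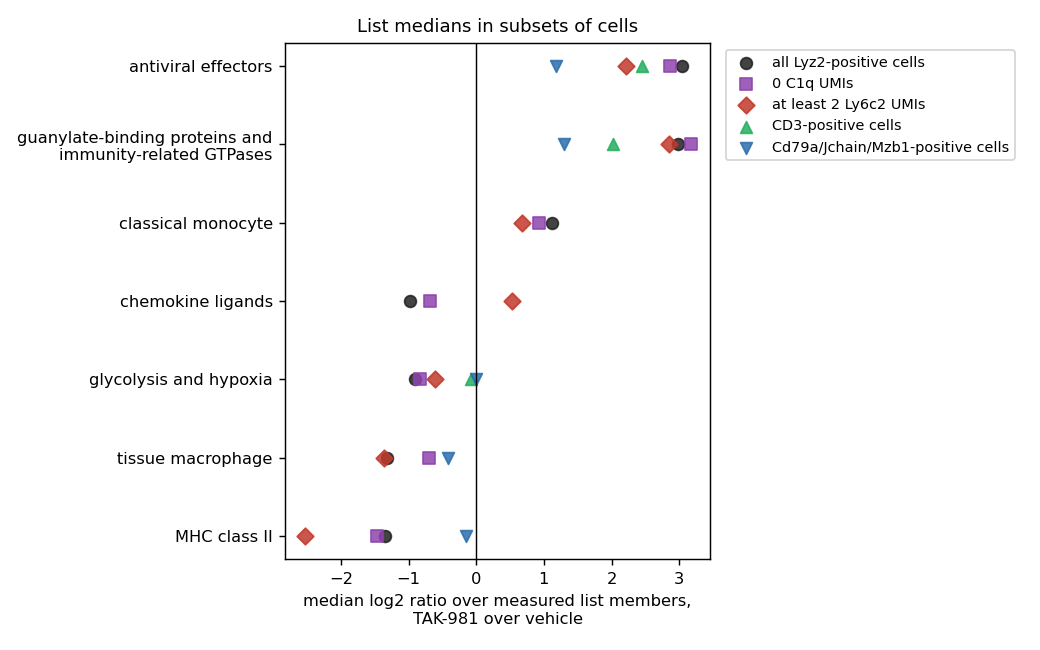
Median log2 ratio (TAK-981 over vehicle) of gene lists in all Lyz2-positive cells, in those with 0 C1q UMIs, in those with at least 2 Ly6c2 UMIs, and in CD3-positive and B-lineage or A20 cells, with lists of under 10 measured genes left out for the last 2. The antiviral list is above 1 in every kind of cell, from 1.18 to 3.04, while the glycolysis and hypoxia list is at -0.91 in all members and near 0 in the other 2 kinds of cells.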

How the data were processed

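The deposited files hold whole-number UMI counts per gene and barcode, not normalized, for 1 TAK-981 and 1 vehicle library. The submitters' processing notes name Cell Ranger 2.1.1 and Seurat 2 without saying what each did. The genome build is not given in the sources used here. The lowest barcode held 4670 and 5965 UMIs, so barcodes had been selected before deposit.

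Members were found by the UMI rule of the opening. Their counts were summed per library and divided by the sum (CPM). The log2 ratio carries the exact conditional binomial 95% interval, which takes UMIs as independent and leaves out variation between cells. A gene at 0 was set to 3 counts over the group, which gives a bound. Genes needed 10 UMIs in both libraries together. Shares above 0 carry exact Clopper-Pearson intervals, and a count of 0 the limit of 3 counts. Cells were thinned without replacement to 4000 UMIs (seed 1), and no member was shallower. No doublet caller was run; alternatives left out the deepest cells and those with any B-lineage UMI.

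Named genes were the 20 highest and 15 lowest with at least 30 UMIs, seen in 10% of cells of the higher library with no cell holding over 50% of its UMIs there, plus up to 6 per described list: the 3 with the largest ratio and 3 by role. Other genes the text names (Ifi27, Maf, Cxcl16, Ccl8, H2-M3, Senp3, Ranbp2, Lamp2 and a few more) were added after their values were seen. A few genes the rule named are not reported here. The members and the lists were chosen with earlier results of these data known, so their direction is no independent evidence. Of 619 list symbols, 608 were in the files, 4 by a RefSeq synonym. CD3-positive cells had at least 3 CD3 UMIs and 0 of Lyz2, and B-lineage and A20 cells at least 5 of Cd79a, Jchain and Mzb1 and 0 of Lyz2 and CD3. Near-identical genes (Ifit3 and Ifit3b, Tgtp1 and Tgtp2, Ly6c1 and Ly6c2, H2 genes) are uncertain one by one.

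The tools were Python 3.11.15, pandas 2.3.3, numpy 2.4.6, matplotlib 3.10.9 and scipy 1.17.1. The ratio script was tested on simulated data.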

Additional observations from a re-analysis of the deposited data

How the results depend on the processing

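The antiviral median log2 ratio of 3.04 lay between 2.11 (at least 10 UMIs in the vehicle library) and 3.09 under every alternative run, and the ratio of the libraries' median interferon-list UMIs per cell (3.63) between 2.92 and 3.75, with cells thinned anew for each. The 720 higher genes became 337 at a minimum of 30 UMIs, 318 at 10 UMIs in the vehicle library and 2425 with no minimum. The 817 lower genes became 257 at 30 UMIs, 2021 with no minimum, 462 with thinned cells and 362 without the cells that held 5 or more S100a8 and S100a9 UMIs or 2 or more of dendritic cell markers. That last alternative left 14 and 13 cells (0.696% and 0.531% of filtered cells) and 2905 measured genes. The next settings were chosen after seeing the data. The lower genes came to 468 in the Ly6c2-positive cells and to 345 in the cells without macrophage or dendritic cell gene UMIs, where fewer genes are measured. Scalings moved the median of all genes by under 0.1.

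Of 116 named genes at least 2-fold higher or lower, 80 were at least 2-fold in the same direction under every alternative that gave a value. Of 1912 such values, 71 were under 2-fold in the same direction and 17 had the opposite sign, most of them at under 10 UMIs per library; the cause was not tested. Ms4a7 had log2 ratios of 0.25 without the cell with the most UMIs, 0.51 without the deepest 10% of cells, 0.78 in cells with no C1q, 0.76 in Ly6c2-positive cells and 0.45 without its own highest cell. Ccl12 had 0.10 without the cell with the most UMIs, 0.0907 without the deepest 10%, 0.0312 without its own highest cell and, at 4 UMIs and 0, a bound of 0.60 without cells with S100a8, S100a9 or dendritic cell markers. Without its own highest cell Pf4 had 0 and 4 UMIs and 0.0312, a bound. Without cells with S100a8, S100a9 or dendritic cell markers, Ccl5 stood at -0.40, Maf at -0.14 and Trem3 at -0.62. In Ly6c2-positive cells Il1a stood at 0.17 and Egr1 at 1.44. In cells without macrophage or dendritic cell gene UMIs, Ctsd stood at 0.00136 (64 and 26 UMIs) and Cxcl9 at -0.11. Trim30d had 4 UMIs and 0, a bound of 0.60, without cells with S100a8, S100a9 or dendritic cell markers.

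The main limits are 1 library per arm, 37 and 41 cells, and the shallower TAK-981 cells. Mouse, batch and treatment cannot be told apart. No paired analysis was possible because each arm has 1 library.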

Other observations

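Groups not described so far were mixed in the Lyz2-positive cells. Of 14 measured costimulatory and checkpoint ligands, 2 were at least 2-fold higher and 2 at least 2-fold lower (median log2 ratio -0.09), near the 12.1% and 13.7% of all genes. Lgals9 had 254 UMIs with TAK-981 and 55 with vehicle, a log2 ratio of 2.76 (2.34 to 3.21), and Cd40, the receptor for T cell help, had 99 and 48, a log2 ratio of 1.60 (1.09 to 2.13). Cd80, a ligand of CD28, had 10 and 34, a log2 ratio of -1.21 (-2.39 to -0.16).

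Of 14 genes of cholesterol and fatty acid synthesis, 6 were at least 2-fold higher and 2 at least 2-fold lower (median 0.60), all at under 40 UMIs per library. The cholesterol exporter Abca1 had 2 UMIs with TAK-981 and 22 with vehicle, and the enzyme Msmo1 had 25 and 14. Among 13 patrolling monocyte genes, 3 were at least 2-fold higher and 4 lower (median 0.21), beside 12.1% and 13.7% of all genes. Pglyrp1, a peptidoglycan-binding protein, had 25 UMIs with TAK-981 and 2 with vehicle.

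For the other lists, the numbers at least 2-fold higher and lower were as follows, beside 12.1% and 13.7% of all genes. Of 19 integrin and migration genes they were 3 and 4 (median -0.52), and of 7 chemokine receptors 1 and 3 (median -0.59). Of 11 genes of arginine, itaconate and NADPH oxidase enzymes they were 2 and 2 (median 0.22), with the itaconate-forming Irg1 at 98 and 48 UMIs. Of 19 apoptosis genes they were 6 and 3 (median 0.15), of 21 heat shock and stress genes 2 and 3 (median -0.29), and of 9 proliferation genes 1 and 1 (median 0.43).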
